A study of Mus musculus with 4 samples.

Results

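The genes described here are the 9 that mark a brain neuron as using glutamate, GABA or glycine, or that take GABA and glycine back up. They are the vesicular glutamate transporters Slc17a6, Slc17a7 and Slc17a8, the GABA-synthesizing enzymes Gad1 and Gad2, the vesicular inhibitory transporter Slc32a1, the plasma membrane glycine transporters Slc6a5 and Slc6a9, and the plasma membrane GABA transporter Slc6a11. They were chosen by name, and 8 of the 9 are among the 12700 genes of the deposited count table. Slc6a5, the neuronal glycine transporter, is not in that table and was not analysed here. RNA-seq was performed on mice with a disruption that models Hunter syndrome (mucopolysaccharidosis type II), in which the lysosomal enzyme iduronate 2-sulfatase, encoded by Ids, is disrupted. Polyadenylated RNA came from C57BL/6 mice aged 9 months, labelled Ids-/- (Ids-ko) or wild type (wt). The dissected tissues were the cerebral cortex (Cx) and a block of midbrain, diencephalon and hippocampus (M), in which the methods of the study also place the striatum, which gave the 4 libraries CxH (Ids-ko cortex), CxWT (wt cortex), MH (Ids-ko M) and MWT (wt M). Each library was made from the pooled RNA of a group of mice and each condition has 1 library, so the spread between mice or pools is unknown and every test below compares 2 libraries, not 2 conditions.

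Glutamate is the main excitatory transmitter of the brain, and GABA and glycine are the main inhibitory ones. A neuron releases glutamate only when a vesicular glutamate transporter loads it into synaptic vesicles. Slc17a7 encodes VGLUT1, the form typical of neurons of cerebral cortex and hippocampus, Slc17a6 encodes VGLUT2, typical of thalamus, hypothalamus and brainstem, and Slc17a8 encodes VGLUT3, found in a small set of neurons that often release another transmitter too. GABA is made from glutamate by the decarboxylases GAD67 (Gad1) and GAD65 (Gad2), and VGAT (Slc32a1) loads both GABA and glycine into vesicles. GlyT1 (Slc6a9) and GAT-3 (Slc6a11) clear glycine and GABA from the extracellular space, largely into glia.

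The labels of the libraries were checked first. The disrupted gene Ids had 5211 reads in CxH and 11890 in CxWT, but 13752 in the library labelled MH and 4496 in the library labelled MWT, so in M more Ids reads came from the library with the knock-out label. The 8 marker genes of cortical excitatory neurons, such as Tbr1, had summed levels of 318 and 279 reads per 1000000 aligned reads (RPM) in CxH and MH, and of 64.0 and 52.5 RPM in CxWT and MWT. The markers of thalamus, hypothalamus and midbrain neurons, of which 10 of 12 are in the table, ran the other way, with summed levels of 15.3 and 15.7 RPM in CxH and MH against 143 and 113 RPM in CxWT and MWT. In CxH, Gata3 (1 read), Sox14 (3) and Pax7 (0) were at or under 3 reads, as were Sox14 (0) and Pax7 (2) in MH. Other cells of the M block did not follow that pattern. The 6 striatal markers had summed levels of 709, 242, 558 and 229 RPM in CxH, CxWT and the libraries labelled MH and MWT, and the 5 measured hippocampal markers of 120, 101, 123 and 77.9 RPM, so both lists were lowest in MWT. By the cortical and the thalamus, hypothalamus and midbrain markers the libraries labelled CxWT and MH go against their area labels, by the striatal markers the libraries labelled CxH and MWT do, and by Ids the libraries labelled MH and MWT go against their genotype labels. All libraries are named below by their labels, values listed 4 at a time without names run in the order CxH, CxWT, MH, MWT, and the ratios are also given for CxH against MWT, the comparison that uses neither CxWT nor MH. That comparison differs in labelled area as well as in labelled genotype, and its libraries had close Ids levels (135 and 155 RPM). In each of the comparisons CxH vs. CxWT, MH vs. MWT and CxH vs. MWT, the first library is high in cortical and low in thalamus, hypothalamus and midbrain markers and the second is the reverse, so in these ratios a difference between genotypes and a difference between tissues cannot be told apart.

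The vesicular glutamate transporters and the decarboxylases are families of similar genes, so the stretches in which they are most alike are printed to show how far short reads can tell the members apart. Each line gives the 50 coding bases most alike within its family, 5′ to 3′ on the strand of the gene, with the positions that differ within the family in capitals. They were read from the NCBI37 (mm9) genome, on which all positions below are given with the GENCODE vM1 annotation.
Slc17a6, chr7:58880823-58880872, plus strand, exon 2 of 12: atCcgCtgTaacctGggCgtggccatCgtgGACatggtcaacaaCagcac
Slc17a7, chr7:52424257-52424306, plus strand, exon 2 of 12: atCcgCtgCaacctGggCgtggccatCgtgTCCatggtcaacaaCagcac
Slc17a8, chr10:89069353-89069402, minus strand, exon 2 of 12: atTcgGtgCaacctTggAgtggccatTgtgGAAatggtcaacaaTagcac
Gad1, chr2:70438745-70438794, plus strand, exon 17 of 17: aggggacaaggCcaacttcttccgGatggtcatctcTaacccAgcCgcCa
Gad2, chr2:22545758-22545807, plus strand, exon 16 of 16: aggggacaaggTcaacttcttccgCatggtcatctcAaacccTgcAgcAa
In these stretches Slc17a6 differs from Slc17a7 at 3 bases and from Slc17a8 at 8, and Gad1 differs from Gad2 at 6, while the alignment allowed at most 2 mismatches. Over the whole coding sequence Slc17a6 and Slc17a7 share 71.7% of aligned bases, and Gad1 and Gad2 67.2%. Every 50-base window of the longest protein-coding transcript was also compared with all other protein-coding genes at up to 2 mismatches. No window of Slc17a6, Slc17a7, Slc32a1, Slc6a9 or Slc6a11 matched another gene, and 126 of 4407 windows of Slc17a8 and 115 of 5695 of Gad2 did. For Gad1, 1008 of 3306 windows (30.5%) matched, all of them Gad1-ps, a gene that is not in the count table. The counting kept reads with a single gene as their target, so a read that fits both may have been counted for neither, which leaves the level of Gad1 uncertain.

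Slc17a7 and Slc17a6 showed the largest differences among the 8 genes, in opposite directions. Slc17a7, on chromosome 7 from 52419291 to 52431508, had 52335 reads in CxH and 5120 in CxWT, and 46328 in MH and 3119 in MWT. These are levels of 1359, 152, 1239.9 and 108 RPM, so the libraries fell into a high pair, CxH and MH, and a low pair, CxWT and MWT. A gene was called where its RPM levels differed by a log2 ratio of 0.7 or more in size with p below 0.05 in a Poisson likelihood ratio test, the test and thresholds stated in the methods of the study, which give the ratio as one of reads, applied here to levels scaled by aligned reads. Slc17a7 was called higher in Cx (CxH vs. CxWT, 8.92-fold, log2 ratio 3.16 ± 0.021) and in M (MH vs. MWT, 11.5-fold, log2 ratio 3.52 ± 0.027). Each ± is a standard error from counting alone. Only 14 genes of the table had a higher ratio in Cx and 25 in M. In CxH against MWT the log2 ratio of Slc17a7 was 3.66 ± 0.027. In CxH and MH, the level of Slc17a7 stood at the 99.9th percentile of all genes of the table by RPM.

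Slc17a6, on chromosome 7 from 58877200 to 58926495, had 405 reads in CxH and 6988 in CxWT, and 816 in MH and 5939 in MWT. Its levels were 10.5 RPM (95% exact Clopper-Pearson interval 9.52 to 11.6), 208 (203 to 213), 21.8 (20.4 to 23.4) and 205 (199.99 to 210.5), and here CxWT and MWT formed the high pair. Slc17a6 was called lower in Cx by 19.8-fold (log2 ratio -4.30 ± 0.074) and in M by 9.39-fold (log2 ratio -3.23 ± 0.054). Only 28 genes had a lower ratio in Cx and 44 in M, and in CxH against MWT the log2 ratio was -4.29 ± 0.074. The high-pair levels of Slc17a6 differed by less than counting error between CxWT and MWT, with a log2 ratio of 0.019 ± 0.025. The low-pair levels did not match each other, since CxH lay below MH with a log2 ratio of -1.05 ± 0.088 and was called lower. In bulk tissue, fewer cells of a type and less RNA per cell cannot be told apart.

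Slc17a8, on chromosome 10 from 89036765 to 89083998, was the rarest of the 8 genes. It had 90, 175, 84 and 162 reads, which are levels of 2.34 RPM (1.88 to 2.87), 5.21 (4.46 to 6.04), 2.25 (1.79 to 2.78) and 5.6 (4.77 to 6.53). The intervals of CxH and MH lay wholly below those of CxWT and MWT. It was called lower in Cx (log2 ratio -1.16 ± 0.19), in M (-1.32 ± 0.19) and in CxH against MWT (-1.26 ± 0.19). With so few reads its ratio is the least precise of the 8.

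**Figure D1:**
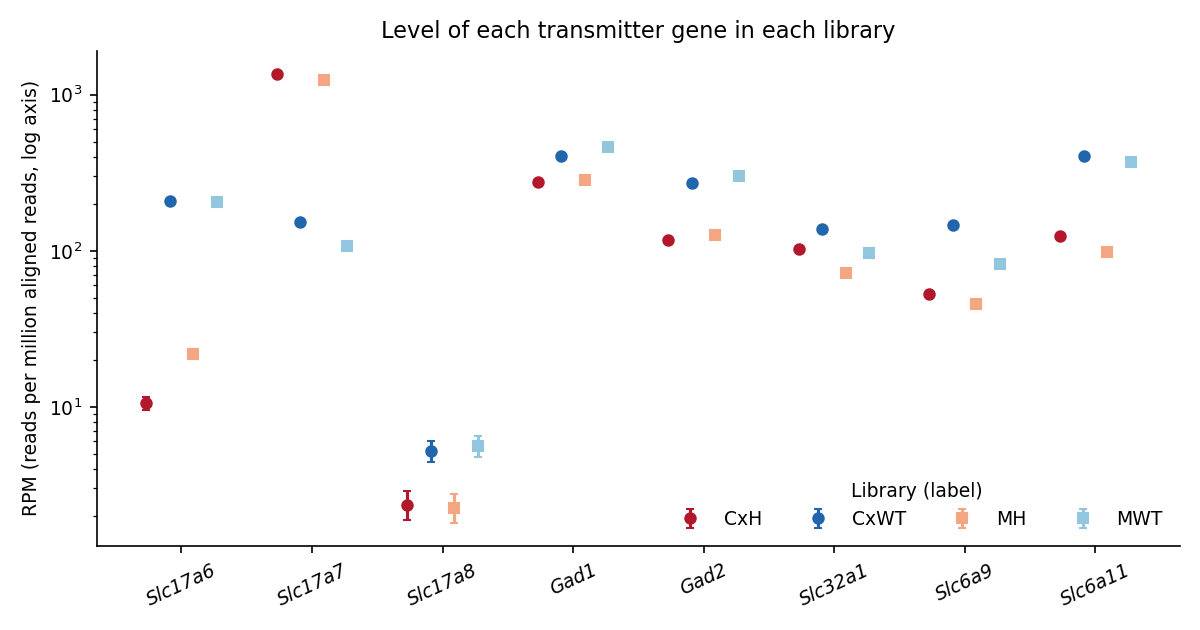
Levels of the 8 transmitter genes in the 4 libraries, in RPM on a log axis, with exact 95% counting intervals. Slc17a7 lies at 1359 and 1239.9 RPM in CxH and MH and at 152 and 108 in CxWT and MWT, and Slc17a6 shows the opposite order.

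Levels were divided by transcript length to compare the genes with each other within a library. Slc17a7 made up 99.4% (99.3 to 99.4) of the summed per-length level of the 3 vesicular glutamate transporters in CxH and 98.7% (98.6 to 98.8) in MH. In CxWT it made up 51.2% (50.3 to 52.1) and in MWT 42.9% (41.9 to 44.0). Slc17a6 held nearly all the rest, with shares of 0.523% in CxH, 1.18% in MH, 47.6% in CxWT and 55.6% in MWT, and Slc17a8 stayed between 0.113% and 1.47%. The level of Slc17a7 over that of Slc17a6 was 189.9 in CxH (172 to 209.9), 83.4 in MH (77.9 to 89.5), 1.08 in CxWT (1.04 to 1.12) and 0.772 in MWT (0.739 to 0.806). These are shares and ratios within a library, so no library scaling enters them. The order of the 2 genes in CxWT depends on the length used, since without division by length Slc17a6 held 56.9% of the reads there and Slc17a7 41.7%.

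**Figure D2:**
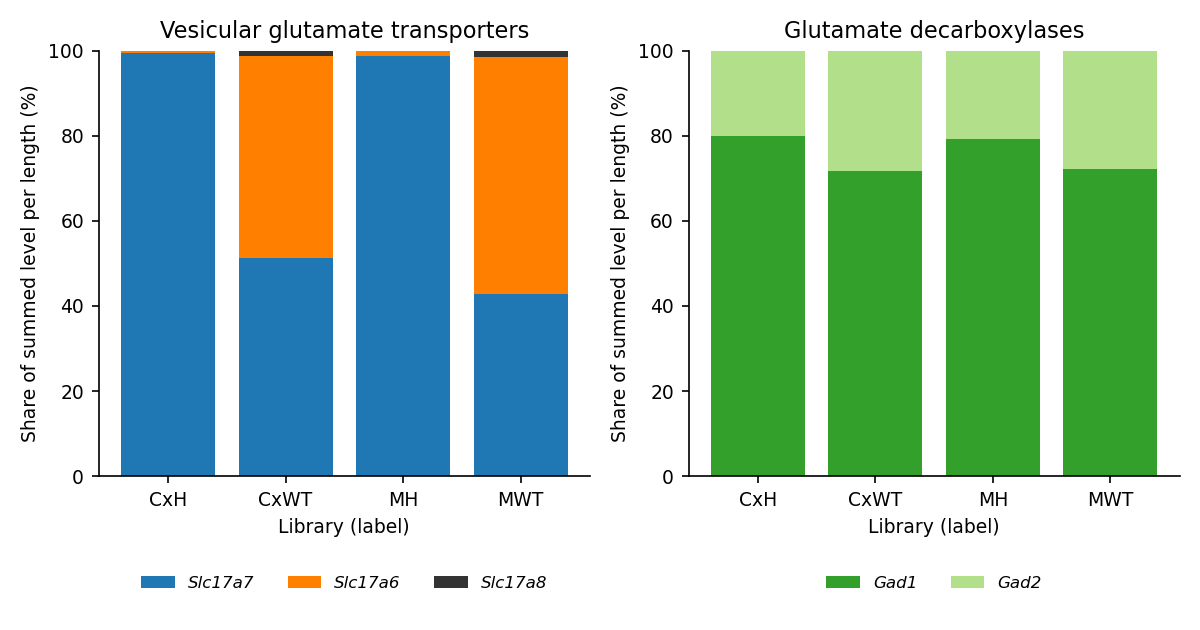
Share of each gene in the summed per-length level of the vesicular glutamate transporters (left) and of the glutamate decarboxylases (right), in percent, by library. Slc17a7 fills 99.4% of the transporter bar in CxH and 98.7% in MH but 51.2% in CxWT and 42.9% in MWT, while the decarboxylase bars differ by less than 10 points.

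The GABA-synthesizing enzymes differed less between libraries than Slc17a6 and Slc17a7, and Gad2 differed about as much as Slc17a8. Gad2, on chromosome 2 from 22477725 to 22549394, had 4511 reads in CxH and 9199 in CxWT, and 4703 in MH and 8733 in MWT, or 117, 274, 126 and 302 RPM. It was called lower in Cx (log2 ratio -1.22 ± 0.026), in M (-1.26 ± 0.026) and in CxH against MWT (-1.36 ± 0.026), and CxH and MH were again the low pair. Gad1, on the same chromosome from 70391129 to 70440071, had 10540 reads in CxH and 13570 in CxWT, and 10541 in MH and 13317 in MWT, or 274, 404, 282 and 460.1 RPM. Its log2 ratio was -0.56 ± 0.019 in Cx, which is short of the threshold, and -0.71 ± 0.019 in M, just past it. The M call of Gad1 was lost under TMM factors (log2 ratio -0.65), DESeq2 size factors (-0.65) and a correction for GC content and length (-0.59), and also with an assumed coefficient of variation of 0.2 between pools or a log2 threshold of 1. In CxH against MWT Gad1 was called lower, with a log2 ratio of -0.75 ± 0.019, and not after that correction (-0.57), with the coefficient of variation of 0.2 or at the threshold of 1.

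Per length, Gad1 was the more abundant decarboxylase in every library, with shares of 71.6% (71.1 to 72.2) in CxWT, 72.3% in MWT, 79.3% (78.8 to 79.9) in MH and between 79.4% and 80.6% (95% interval) in CxH. The share was thus higher in CxH and MH than in CxWT and MWT, and Gad2 was lower there by more than Gad1. Counting only windows that match no other gene, an alternative chosen after the data were seen, raised the Gad1 shares to between 78.2% and 85.0% and left their order as it was. The summed per-length level of the glutamate transporters was 4.56 times that of the decarboxylases in CxH and 4.03 times in MH, but 0.602 times in CxWT and 0.450 times in MWT. With only the windows that match no other gene, these ratios were 3.38 in CxH, 2.99 in MH, 0.457 in CxWT and 0.341 in MWT.

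Slc32a1 (chromosome 2, 158436494 to 158441484), the vesicular transporter shared by GABA and glycine neurons, had 3963 reads in CxH and 4667 in CxWT, and 2686 in MH and 2785 in MWT, or 103, 139, 71.9 and 96.2 RPM. It was not called in Cx (log2 ratio -0.43 ± 0.031), in M (-0.42 ± 0.039) or in CxH against MWT (0.097 ± 0.036). Unlike the genes above, Slc32a1 did not split the libraries into CxH and MH against CxWT and MWT, as CxH lay above MWT, an order that turned with column totals (log2 ratio -0.010) and pan-neuronal scaling (-0.035). This gene has a GC content of 61.9%, the highest of the 8, and the log2 ratio of all genes moved with GC content in every comparison (Spearman's rho across 10725 genes 0.461 in Cx and 0.486 in M, a description, since genes are not replicates). After correction for GC content and length the log2 ratio of Slc32a1 was -0.79 in Cx and -1.11 in M, past the threshold in both, and -0.82 in CxH against MWT. Per length, its level relative to the summed decarboxylase level was 0.361, 0.296, 0.242 and 0.181. An antisense gene, Gm14205, overlaps 697 exonic bases of Slc32a1, and whether the counting used strand is not given in the sources used here, so this level is uncertain.

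Slc6a11 and Slc6a9, the uptake transporters, were both called lower in Cx and in M. Slc6a11, on chromosome 6 from 114081235 to 114199880, had 4820 reads in CxH and 13654 in CxWT, and 3667 in MH and 10749 in MWT, or 125, 406, 98.1 and 371 RPM. Its log2 ratio was -1.70 ± 0.024 in Cx, -1.92 ± 0.028 in M and -1.57 ± 0.025 in CxH against MWT, next in size to that of Slc17a6 among the genes called lower. Slc6a9, on chromosome 4 from 117507111 to 117547803, had 2026, 4882, 1703 and 2397 reads, or 52.6, 145, 45.6 and 82.8 RPM. It was called lower in Cx (log2 ratio -1.46 ± 0.038) and in M (-0.86 ± 0.046), but CxH against MWT gave -0.65 ± 0.044, short of the threshold, which it passed with column totals (-0.76), pan-neuronal scaling (-0.79) and the correction for GC content and length (-1.20). The level of Slc6a9 in CxWT stood apart, 0.81 ± 0.036 above MWT on the log2 scale and called higher, a call that the same correction ended (0.51). Exons of Slc6a9 overlap those of the antisense genes Ccdc24 (1258 bases), Gm17114 (385 bases) and B4galt2 (46 bases), so its level is uncertain for the same reason as that of Slc32a1. Of all genes, 9.46% were called higher and 11.5% lower in Cx, 12.3% and 12.7% in M, and 15.6% and 15.1% in CxH against MWT. Beside these shares, 1 of the 6 astrocyte markers was called higher and 1 lower in Cx, and 0 and 1 in M and in CxH against MWT. The astrocyte markers had summed levels of 2393, 1763, 2238 and 2055 RPM. All 6 oligodendrocyte markers were called lower in Cx, 3 in M and 2 in CxH against MWT, with summed levels of 4762, 9056, 4947 and 7174 RPM. The part of these cells in the ratios of Slc6a11 and Slc6a9 was not tested.

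Counted together, 1 of the 8 genes was called higher and 5 lower in Cx, where 9.46% of all genes of the table were called higher and 11.5% lower. In M, 1 was called higher and 6 lower, against 12.3% and 12.7% of all genes. Slc17a7 was the gene called higher each time. The median log2 ratio of the 8 was -1.19 in Cx and -1.06 in M, beside -0.093 and -0.066 over all genes, while the single ratios of the 8 went both ways (-4.30 to 3.16 in Cx, -3.23 to 3.52 in M). In CxH against MWT, 1 of the 8 was called higher and 5 lower (15.6% and 15.1% of all genes), and in MH against CxWT 1 and 6 (6.41% and 8.89%). TMM factors turned the split of all calls in Cx from 1201 higher and 1457 lower to 1447 and 1135, and the split of the 8 genes stayed at 1 and 5. In M they turned the split of all calls from 1556 and 1614 to 1774 and 1386, and that of the 8 genes from 1 and 6 to 1 and 5. Column totals and pan-neuronal scaling moved the split of all calls in M the other way, to 1377 and 1896 and to 1311 and 2015. Under both, the 8 genes stayed at 1 and 6.

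**Figure D3:**
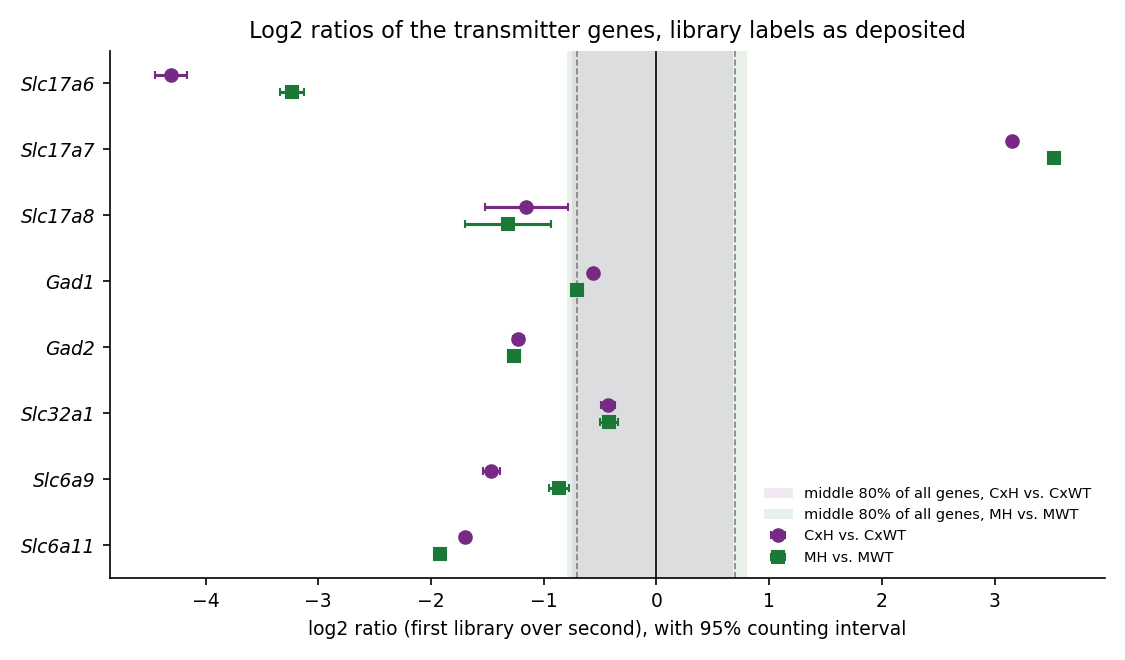
log2 ratios of the 8 genes for CxH vs. CxWT and MH vs. MWT, with 95% counting intervals, the call threshold of 0.7 in either direction and the range that holds 80% of all genes. Slc17a7 lies at 3.16 and 3.52, Slc17a6 at -4.30 and -3.23, and Slc32a1 stays inside the threshold in both.

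**Figure D4:**
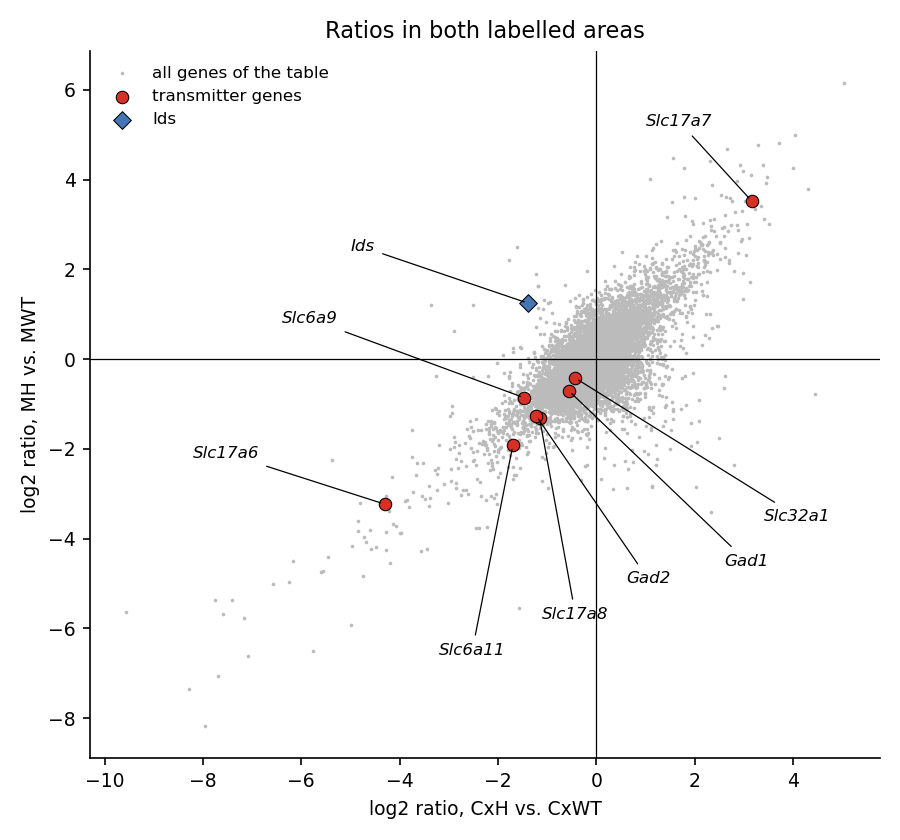
log2 ratio of each of the 12700 genes in Cx (x axis) against M (y axis), with the 8 transmitter genes and Ids marked. The 8 genes lie in the quadrants where the ratios have the same sign, whereas Ids, at -1.39 in Cx and 1.24 in M, does not.

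The comparisons between labelled areas gave few calls among these genes. In CxH against MH, 0 of 8 were called higher and 1 lower (Slc17a6, log2 ratio -1.05), beside 2.43% and 1.06% of all genes. In CxWT against MWT, 1 was called higher (Slc6a9, log2 ratio 0.81) and 0 lower, beside 5.43% and 2.11%. Slc17a7, the cortical form, had a log2 ratio of 0.13 ± 0.0092 in CxH against MH and 0.50 ± 0.033 in CxWT against MWT. Slc32a1 had 0.52 ± 0.036 and 0.53 ± 0.035, the largest of the differences that missed the threshold. After correction for GC content and length, Slc17a7 turned to -0.060 in CxH against MH and Slc32a1 to -0.026 in CxWT against MWT. The other genes lay between -0.19 and 0.35 in both comparisons.

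The order of the genes by level per length (RPKM, RPM per kilobase of transcript) also separated the libraries. In CxH it ran Slc17a7 (462), Gad1 (81.6), Slc32a1 (36.8), Slc6a11 (30.8), Gad2 (20.4), Slc6a9 (15.1), Slc17a6 (2.44) and Slc17a8 (0.525), and no neighbours had overlapping intervals. In MH the order was the same, with 422 for Slc17a7, 84.1 for Gad1 and 5.06 for Slc17a6, and only Slc32a1 (25.7) and Slc6a11 (24.1) overlapped. In CxWT Gad1 (120.3) and Slc6a11 (99.9) came first, followed by Slc17a7 (51.8), Slc32a1 (49.6), Slc17a6 (48.1) and Gad2 (47.6), whose neighbouring intervals overlapped. In MWT the order was Gad1 (137), Slc6a11 (91.3), Gad2 (52.5), Slc17a6 (47.5), Slc17a7 (36.7), Slc32a1 (34.4), Slc6a9 (23.8) and Slc17a8 (1.26). There only Slc17a7 and Slc32a1 overlapped. Gad1 thus led in the libraries in which Slc17a7 was low, with the reservation on Gad1 given above.

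The other genes of these transmitter cycles are given for comparison. Of 26 listed genes for transport and metabolism of glutamate, glutamine, GABA and glycine, 24 are in the table, and Slc6a12 and Shmt1 are not. In Cx 3 were called higher and 4 lower, beside 9.46% and 11.5% of all genes, with a median log2 ratio of -0.080 over 10 genes above 0 and 14 below. In M 1 was called higher and 5 lower, beside 12.3% and 12.7%, with a median of -0.094, and in CxH against MWT 1 and 5, beside 15.6% and 15.1%, with a median of -0.080. Slc6a13 (GAT-2) had 536, 278, 319 and 268 reads, and was called higher in Cx (log2 ratio 0.75 ± 0.11) but not in M (-0.12) or in CxH against MWT (0.59 ± 0.11). It did not move like Slc6a11, which was called lower in both. Abat, which breaks GABA down, was called lower in both areas (11311, 17953, 10594 and 17045 reads, log2 ratios -0.86 and -1.05, and -1.003 in CxH against MWT), and so were Slc38a1 (-0.91 and -0.89, and -0.87 in CxH against MWT), a glutamine transporter, and Slc1a6 (-1.28 and -0.75, and -0.91 in CxH against MWT), a neuronal glutamate transporter. The other 3 plasma membrane glutamate transporters, named here after their values were seen, lay above 0 in Cx and M, and of them Slc1a2, the main astrocyte form and also one of the astrocyte markers above, was called higher in Cx (59017, 28863, 50059 and 28864 reads, log2 ratio 0.84) but not in M (0.43) or in CxH against MWT (0.62). Gldc, the decarboxylase of the glycine cleavage system, was called higher in both (1056, 268, 815 and 236 reads, log2 ratios 1.78 and 1.42, and 1.75 in CxH against MWT), opposite to the glycine transporter Slc6a9. Of the other 4 measured genes of glycine synthesis and cleavage, named here after their values were seen, Dld was called lower in Cx (-0.78) and Gcsh in M (-0.94) and in CxH against MWT (-0.81), while Amt and Shmt2 were not called in these comparisons. None of the 6 enzymes that interconvert glutamate and glutamine was called in Cx, M or CxH against MWT, with log2 ratios between -0.54 and 0.33. Another scaling shifts all log2 ratios of a comparison alike, and some of these calls lay close to the threshold. In M, TMM and DESeq2 factors shifted ratios by 0.059 and 0.060, which puts Slc1a6 (-0.75) short of it. In Cx they shifted ratios by 0.093 and 0.087, which puts Dld (-0.78) short. Pan-neuronal scaling shifted ratios in Cx by -0.12, which puts Slc6a13 (0.75) short.

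**Figure D5:**
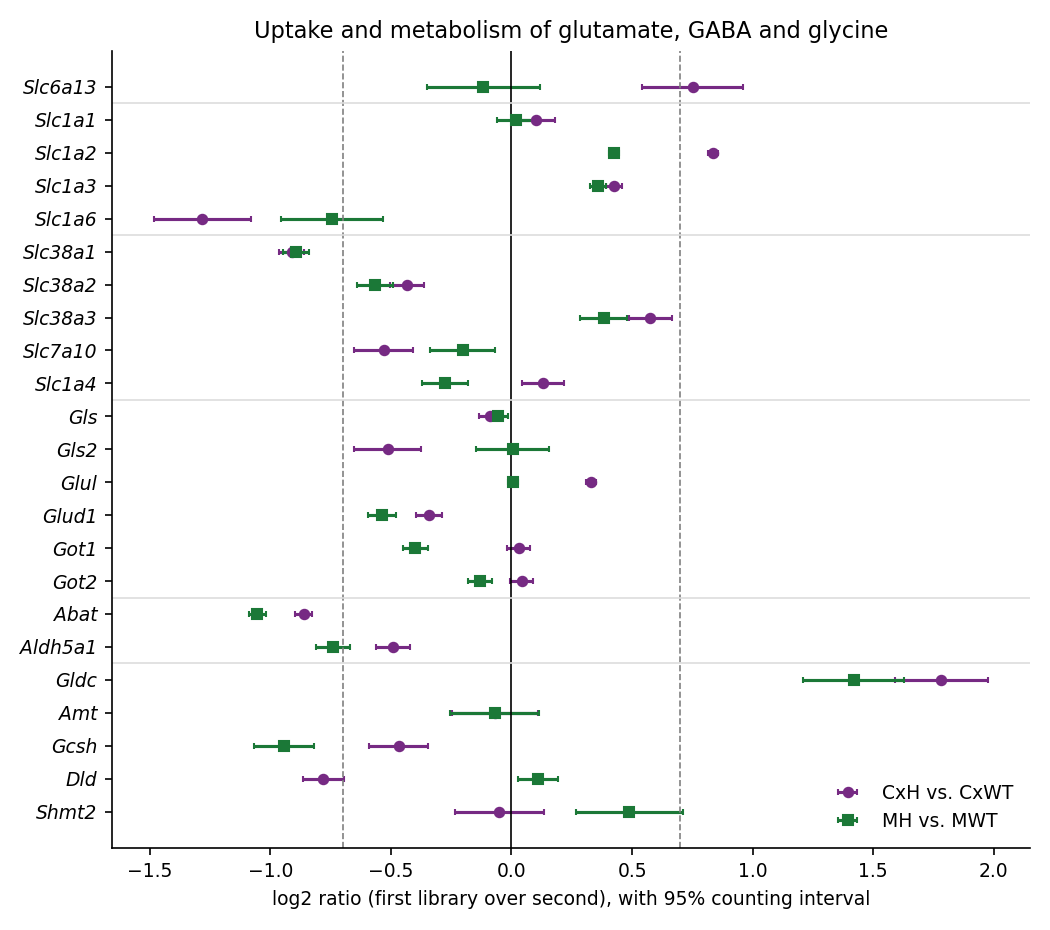
log2 ratios of other genes of glutamate, GABA and glycine transport and metabolism in Cx and M, by function, with the call threshold of 0.7 in either direction. Gldc lies at 1.78 and 1.42, Abat at -0.86 and -1.05, and most of the rest stay inside the threshold.

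For each of the 8 genes, the 3 genes with the most similar profile over the 4 libraries were looked up by the root mean square distance between centred log2 levels, a description over 4 points with no test. The closest to Slc17a7 were Tbr1 (distance 0.0728), Emx1 (0.0901) and Neurod2 (0.112). Tbr1 had 3015, 281, 2399 and 184 reads, the same high and low pairs as Slc17a7. The closest to Slc17a6 were Lhx9 (0.170), Slitrk6 (0.174) and Slc18a2 (0.198), and Lhx9 had 54, 912, 92 and 594 reads. Of these 6, Tbr1, Emx1, Neurod2 and Lhx9, are transcription factors also used as area markers above. Gad2 was closest to Rsrc1 (0.0266) and Cbln4 (0.0278), Slc6a11 to Arhgap24 (0.0371) and Slc6a9 to Grin2d (0.0639). Gad1, with 564 genes within a distance of 0.1, was nearest to Nif3l1 (0.0077), Slc32a1, with 24, to Evpl (0.015), and Slc17a8 was nearest to Rtl9 (0.039).

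Markers of other neurons are given beside these ratios, and their counts stand beside the same shares of all genes called as above (9.46% higher and 11.5% lower in Cx, 12.3% and 12.7% in M, 15.6% and 15.1% in CxH against MWT). Of the 6 cortical interneuron markers, 3 were called higher and 1 lower in Cx and 3 and 2 in M, with summed levels of 166, 114, 136 and 105 RPM. Gad2, lower in CxH and MH, ran against that sum, but single markers went both ways, with 3 of the 6 above 0 and 3 below in Cx and 4 above and 2 below in M. In CxH against MWT, 4 of the 6 were called higher and 2 lower. Of 6 striatal markers, whose projection neurons use GABA, 5 were called higher in Cx, 5 in M and 6 in CxH against MWT, at the summed levels given above. Of the 6 markers listed for hindbrain and spinal glycine neurons only Glra1 is in the table, with 6, 254, 8 and 167 reads. The 8 pan-neuronal markers summed to 3698, 3403, 3579 and 3375 RPM, with 2 of them called higher and 0 lower in Cx (Rbfox3, log2 ratio 1.43, and Syn1, 0.71) 1 and 0 in M (Rbfox3, 1.61) and 2 and 0 in CxH against MWT (Rbfox3, 2.08, and Syn1, 0.82). The part of each cell type in the ratios of the transmitter genes was not tested.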

How the data were processed

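The authors sequenced 4 libraries on a SOLiD instrument, aligned the reads to NCBI37 (mm9) with PASS at up to 2 mismatches, and deposited counts of reads aligned to a single gene for genes covered over enough of their length, without normalization. The gene annotation and the use of strand in counting are not given in the sources used here. Reads on genes numbered 16380080 to 23475080 per library, and the floor of 3 reads lay between 0.0779 and 0.104 RPM. Counting error is the only error in intervals, standard errors and floors. Counts were scaled by the aligned reads that the study gives for each library. For ratios, 0 reads were taken as 1. The likelihood ratio test was run on all 12700 genes for the 6 pairs of libraries, with no p-value adjusted over the listed genes alone.

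Gene IDs were matched to symbols in RefSeq (GRCm38.p6) for 12690 genes, and to GENCODE vM1 on NCBI37 for 12444, which gave lengths, GC content and sequence. Genes were named if they are transmitter genes, Ids, pathway genes called in both Cx and M, Slc6a12 or Slc6a13, at most 3 markers a list, or the 3 nearest profiles. Slc1a2, Dld, Gcsh, Amt and Shmt2 were named after their values were seen, and Shmt1 as a listed gene outside the table. A few of these are not reported here, though they entered counts and medians. The transmitter genes and all lists were chosen with earlier results of these data known. Alternatives were other scalings (column totals, TMM, DESeq2 size factors, pan-neuronal reads), correction for GC content and length, an edgeR exact test with an assumed coefficient of variation of 0.1 or 0.2, a log2 threshold of 1, adjusted p-values, a filter of 100 reads, 0.5 added to every count, and other lengths. The likelihood ratio test with its thresholds, the correction for GC content and length, and the exact interval were tested on simulated counts. The simulated counts held counting error alone, with no spread between pools, and the other steps were not simulated. Tools were edgeR 4.0.16 and DESeq2 1.42.0 in R 4.3.3, and pandas 2.3.3, numpy 2.4.6, scipy 1.17.1 and matplotlib 3.10.9 in Python 3.11.15.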

Additional observations from a re-analysis of the deposited data

Results flagged for a closer look

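By label, the difference between Cx and M had opposite signs in the Ids-ko and wt libraries for 2 genes, under the main scaling. Ids and the markers above go against some of these labels, so the signs cannot be assigned to areas or genotypes. For Slc17a6 the log2 ratio was -1.05 in CxH against MH and 0.019 in CxWT against MWT, and for Slc17a8 it was 0.056 and -0.10. With 1 library per condition the difference between these ratios was not tested, and only for the first of the 4 values does the 95% counting interval leave out 0. The opposite signs did not hold under every alternative, as CxWT against MWT reached -0.072 for Slc17a6 and 0.084 for Slc17a8.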

How the results depend on the processing

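In Cx, the calls of the 8 genes under every alternative were those reported, except that Slc32a1 was called lower after correction for GC content and length (log2 ratio -0.79). In M, 5 to 7 genes were called. The same correction made Slc32a1 called (-1.11) and ended the call of Gad1, so 7 genes were called under it. Gad1 was also lost under TMM and DESeq2 factors and with a coefficient of variation of 0.2 (6 genes left). Gad1 and Slc6a9 were both lost at a log2 threshold of 1 (5 left). The ratios of Slc17a6 and Slc17a7 stayed between -4.42 and -4.03 and between 2.87 and 3.25 in Cx under other scalings and the correction, and between -3.32 and -2.96 and between 3.06 and 3.58 in M.

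The differences that changed sign were all ones that had not been called. After correction for GC content and length, CxH against MH gave -0.060 for Slc17a7, 0.011 for Gad1 and 0.11 for Gad2, CxWT against MWT gave 0.084 for Slc17a8, 0.0050 for Gad2, -0.026 for Slc32a1 and -0.048 for Slc6a11, and CxH against MWT gave -0.82 for Slc32a1. Slc32a1 in CxH against MWT was -0.010 with column totals and -0.035 with pan-neuronal scaling. Slc17a6 in CxWT against MWT was -0.072 with column totals, -0.030 with TMM and -0.030 with DESeq2 factors. The call of Slc6a9 in CxWT against MWT was lost (0 of the 8 genes called) under the correction, a coefficient of variation of 0.2 and a log2 threshold of 1. In MH against CxWT, the call of Slc32a1 (log2 ratio -0.95) was lost at a log2 threshold of 1. In CxH against MWT, Slc6a9 became called with column totals (-0.76), pan-neuronal scaling (-0.79) and the correction (-1.20). The correction also made Slc32a1 called there (-0.82) and ended the call of Gad1 (-0.57). A coefficient of variation of 0.2 and a log2 threshold of 1 ended that call of Gad1 too, with 5 genes left under each.

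Over the whole table, a log2 threshold of 1 left 1401 calls of 2658 in Cx, 1642 of 3170 in M, 143 of 444 in CxH against MH, 295 of 958 in CxWT against MWT, 1961 of 3895 in CxH against MWT and 1064 of 1943 in MH against CxWT. A coefficient of variation of 0.2 left 191 in CxH against MH and 487 in CxWT against MWT. Under the correction, 399 genes were called in CxWT against MWT and 2003 in CxH against MWT, totals that can include genes not called before it. The share of calls that were higher went from 45.2% to 56.0% with TMM, 55.4% with DESeq2 factors and 31.5% with pan-neuronal scaling in Cx, from 69.6% to 58.4% with column totals and with pan-neuronal scaling in CxH against MH, from 72.0% to 55.2% with column totals in CxWT against MWT, from 50.8% to 39.1% with column totals and 36.5% with pan-neuronal scaling in CxH against MWT, and from 41.9% to 54.2% with TMM and 54.4% with DESeq2 factors in MH against CxWT. In M the share of calls that were higher went from 49.1% to between 39.4% (pan-neuronal scaling) and 56.3% (DESeq2 factors). The median of all genes shifted by over 0.1 with pan-neuronal scaling in Cx (-0.12) and CxH against MWT (-0.13), with column totals there (-0.11), and with TMM and DESeq2 factors in MH against CxWT (0.11 for each). The cause of these changes was not tested. The methods of the study state that each brain was cut into both areas, so by label CxH and MH share mice, as do CxWT and MWT. No paired analysis was possible because the groups compared have 1 library each, made from pooled RNA.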
